A study of Mus musculus with 8 samples.

Results

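Lmna, Vim, S100a4, S100a6, S100a10, S100a11, Anxa1, Anxa2, Lgals1 and Lgals3 were described in regulatory T cells (Tregs, a CD4 T cell lineage set by the factor Foxp3 that holds other immune cells in check) of injured muscle and of spleen. The 10 genes were chosen by symbol from the 38406 gene rows of the deposited count table, with earlier results of the same 8 libraries already known. All 10 were among the 14772 genes with enough counts to be tested. The contrast that led to the choice is not recorded, so every contrast between groups is treated as one that the choice used. The differences of the 10 genes are therefore descriptions and carry no p-values.

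The study asked how the age of a mouse changes the transcriptome of muscle and splenic Tregs. RNA was sequenced from 4 groups of 2 libraries: aged muscle, young muscle, aged spleen and young spleen Tregs. Aged mice were older than 6 months and young mice were 2 months old. All mice were C57BL/6 males, with no transgene or mutation named in the labels. In all 4 groups the tibialis anterior, quadriceps and gastrocnemius had been injured with 0.9 µg each of cardiotoxin, a venom peptide used to make fibres die and regenerate. Both tissues were taken 4 days later, so no uninjured muscle and no spleen of an uninjured mouse was analysed here. Each library held 1500 Tregs sorted in 2 rounds, and the RNA was amplified through 9 h of in vitro transcription and then 15 cycles of PCR. The markers used in the sort are not given in the labels. The series' design text speaks of biological duplicates without saying whether these were separate animals or pools, so any error given here measures the spread between these libraries, which may be partly technical.

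The 10 genes belong to 4 protein families that work at the nuclear envelope, the cytoskeleton and the plasma membrane. Lmna encodes the A-type lamins, intermediate filaments that line the inner nuclear membrane, and Vim encodes vimentin, an intermediate filament of the cytoplasm. S100 proteins are small proteins of the EF-hand type, most of which bind calcium and then attach to target proteins. Annexins bind acidic phospholipids of membranes in the presence of calcium, and some of them are held together by an S100 partner: S100a10 joins a pair of annexin A2 chains, and S100a11 binds annexin A1. Galectins are secreted or cytosolic lectins that bind beta-galactosides on glycoproteins. In T cells, genes of these families are generally more active in activated, memory and tissue-resident cells than in naive cells, and galectin-1 is known as one of the molecules by which Tregs suppress other T cells. Muscle Tregs gather after injury and support the repair of the muscle.

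Library totals ranged from 1969982 to 4008622 counts. Levels are given as CPM, a gene's counts per 1000000 counts of the library's total after TMM scaling. The 8 Treg and T cell marker genes summed to between 3684 and 5034 CPM per library and none was at 0 in any library. Foxp3 itself was at 15.4 to 41.5 CPM. Single markers moved in opposite directions within this sum. Ctla4 had a mean of 2471 CPM in young muscle and 505 CPM in young spleen, while Cd3d was at 503 and 704 CPM. At an adjusted p under 0.05 by edgeR, 1 of the 8 was higher and 2 lower in muscle in young mice, and 2 higher and 3 lower in aged mice. Replicate 1 of young muscle stood apart from the other 7 libraries in markers of other cells. Its 15 myeloid marker genes, which include S100a8 and S100a9, summed to 782 CPM, with none at 0, against 46.1 to 168 CPM in the other 7 libraries, and its 8 fibroblast markers summed to 603 CPM, against 8.94 to 104 CPM. Markers of muscle fibres, B cells and CD8 T or NK cells were low in all libraries, at 7.11 to 70.6 CPM per list. The 6 endothelial markers were also low, but their sum differed between tissues: they summed to 36.1 and 64.3 CPM in aged muscle and 20.5 and 29.97 CPM in young muscle, against 10.1 and 14.2 CPM in aged spleen and 0.935 and 1.55 CPM in young spleen. Emcn and Tek made up most of this sum in aged muscle, at means of 23.1 CPM (standard deviation 15.8) and 18.0 CPM. No other endothelial marker had a mean above 5.46 CPM in any group, and Esam had no count in aged muscle. In such bulk libraries, fewer cells of a type and less RNA per cell cannot be told apart.

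**Figure D1:**
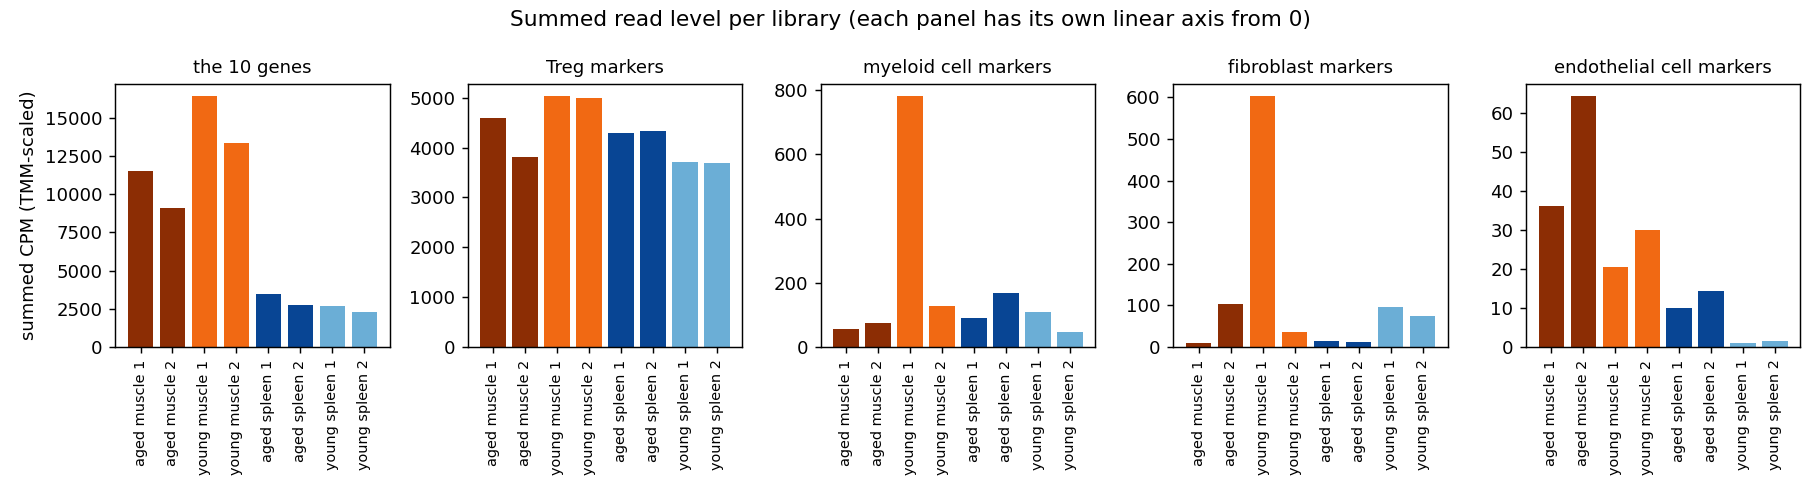
Summed CPM (vertical axes, linear from 0, each panel with its own range) in each of the 8 libraries, 1 bar per library, for the 10 genes described here and for markers of Tregs, myeloid cells, fibroblasts and endothelial cells. Replicate 1 of young muscle holds the highest myeloid sum, 782 CPM, and the highest fibroblast sum, 603 CPM, while the Treg sums lie between 3684 and 5034 CPM in all libraries.

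The 10 genes lie on 6 chromosomes (GENCODE M21 annotation of GRCm38, the assembly that mm10 names). Lmna spans chromosome 3, 88480147 to 88509956, on the minus strand. The 4 S100 genes lie in the S100 cluster of the same chromosome, all on the plus strand: S100a4 at 90603771 to 90606045, S100a6 at 90612882 to 90624181, S100a11 at 93520488 to 93526287 and S100a10 at 93555080 to 93564643. Vim is at chromosome 2, 13573927 to 13582826, plus strand, and Anxa2 is at chromosome 9, 69453620 to 69491795, plus strand. Lgals3 is at chromosome 14, 47367751 to 47386160, and Lgals1 at chromosome 15, 78926725 to 78930465, both on the plus strand. Anxa1 is at chromosome 19, 20373428 to 20390944, minus strand. Anxa1 and Anxa2 overlap genes annotated on the opposite strand (1500015L24Rik and Gm16144), and S100a4 overlaps Gm42674 and Anxa2 overlaps Mir3109 on their own strands. Whether counting used strand is not given in the sources used here, so reads of these overlapping genes cannot be told apart. S100a11 has 5 look-alike genes of at least 90% identity over 200 bases or more, and the 3 of them that the table lists held 5, 1 and 2 counts over all libraries, against 8512 counts for S100a11.

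RefSeq promoter sequences (GRCm38.p6) were at hand for 8 of the 10 genes, all but S100a10 and Lgals1, as 9 windows of the 250 bases before a transcript start. Of the 5 motifs searched on both strands, 2 are marked here: TGANTCA, the AP-1 site through which Fos and Jun factors act in activated T cells, and TATAAA, the TATA box. The 3 promoters shown are examples of windows that hold a match: S100a4 with a TATA box alone of these 2 motifs, S100a11 with AP-1 matches alone, and Anxa2 with both. Each of the 3 runs 5′ to 3′ on the strand of the gene, with the matches in capitals: S100a4 is chr3:90603520-90603769 (plus strand), S100a11 is chr3:93520246-93520495 (plus strand) and Anxa2 is chr9:69453433-69453682 (plus strand).
S100a4: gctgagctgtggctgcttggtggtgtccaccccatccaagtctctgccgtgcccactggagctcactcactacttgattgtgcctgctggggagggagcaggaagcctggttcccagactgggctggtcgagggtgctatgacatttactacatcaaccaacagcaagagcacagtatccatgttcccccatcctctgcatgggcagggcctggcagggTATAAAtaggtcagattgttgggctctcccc
S100a11: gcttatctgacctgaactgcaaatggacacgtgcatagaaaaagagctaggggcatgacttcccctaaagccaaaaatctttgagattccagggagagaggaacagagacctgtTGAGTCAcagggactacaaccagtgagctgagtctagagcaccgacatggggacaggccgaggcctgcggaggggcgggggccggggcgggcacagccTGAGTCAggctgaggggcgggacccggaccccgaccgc
Anxa2: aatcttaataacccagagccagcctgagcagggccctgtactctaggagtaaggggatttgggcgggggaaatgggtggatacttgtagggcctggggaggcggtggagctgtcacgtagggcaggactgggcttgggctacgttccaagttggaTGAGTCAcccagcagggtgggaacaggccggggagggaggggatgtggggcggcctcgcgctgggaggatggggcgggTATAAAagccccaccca
The TATA box begins 31 bases before the RefSeq start in S100a4 and 17 bases before it in Anxa2. The AP-1 matches begin 136 and 38 bases before the start in S100a11 and 95 bases before it in Anxa2. TGANTCA was found in 2 of the 9 windows and in 6.75% of 32851 RefSeq promoter windows of the same length, and TATAAA in 4 of the 9 (Vim, S100a4, Anxa1 and Anxa2) and in 12.4% of all windows. The GC box GGGCGG, the site of Sp factors, was in 4 of the 9 windows against 32.7% of all, the Runx motif TGTGGT in 2 against 14%, and the CRE TGACGTCA in 0 against 1.55%. Neither TGANTCA nor TATAAA was found in 4 of the 9 windows, a pair for Lmna and 1 each for S100a6 and Lgals3. The marked matches overlap no match of another motif. These are matches of letters in a window and not measured binding.

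Lmna had the widest difference between tissues of the 10 genes. Lmna was at 1267 and 979 CPM in aged muscle and 1895 and 1644 CPM in young muscle, against 37.0 and 21.4 CPM in aged spleen and 33.6 and 45.7 CPM in young spleen. The lowest muscle library stood 21.4-fold above the highest spleen library. On the log2 scale, muscle minus spleen was 5.24 ± 0.26 (SE) in aged mice and 5.47 ± 0.26 in young mice, which is 37.8-fold and 44.3-fold. Ranked by log2 fold change over all 14772 genes tested, Lmna was at place 75 in aged mice and 199 in young mice. Both aged muscle libraries lay below both young muscle libraries, with a log2 difference of -0.66 ± 0.21, and the spleen groups overlapped.

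Vimentin, the filament protein that takes up load in the cytoplasm of migrating cells, was more even across libraries. Vim was at 1263 and 1048 CPM in aged muscle and 1365 and 1248 CPM in young muscle, against 159 and 187 CPM in aged spleen and 250.5 and 229 CPM in young spleen. Muscle minus spleen was 2.74 ± 0.16 in aged mice and 2.45 ± 0.16 in young mice on the log2 scale. The muscle groups overlapped, with an aged minus young difference of -0.18 ± 0.15, while both aged spleen libraries lay below both young ones (-0.47 ± 0.16). Vim was the 1 gene of the 10 whose spleen groups stood apart in that direction.

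**Figure D2:**
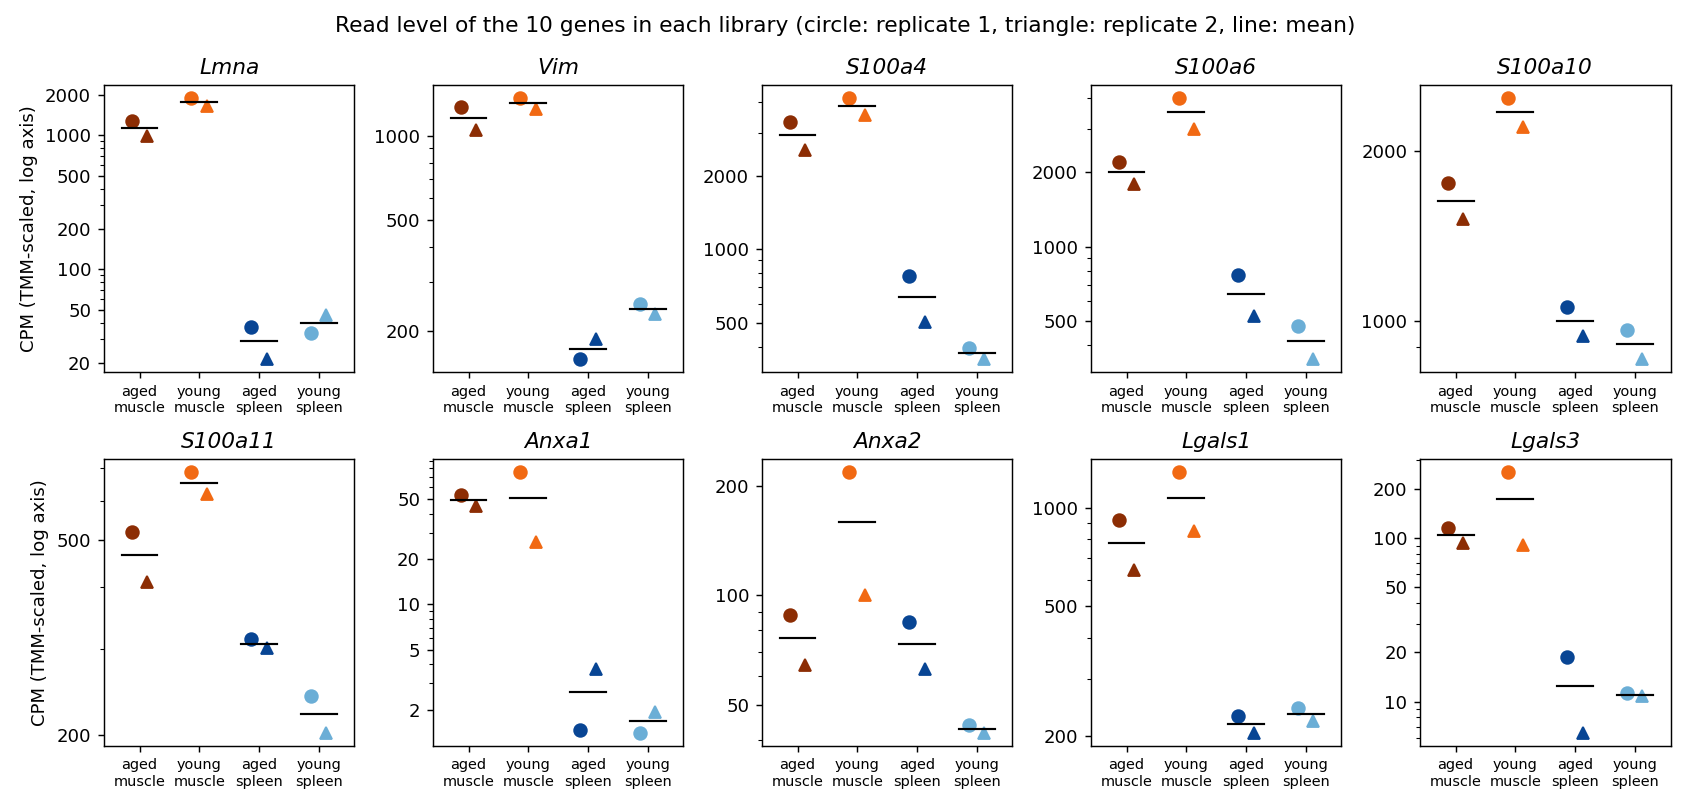
CPM (log scale) of each of the 10 genes in every library, 1 panel per gene, with groups from left to right as aged muscle, young muscle, aged spleen and young spleen; circles are replicate 1, triangles replicate 2 and lines group means. In 9 of the 10 panels all 4 muscle points lie above all 4 spleen points, and in the Anxa2 panel the aged muscle points lie among the aged spleen points.

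Per kilobase of exon, the 4 S100 genes were the most abundant of the 10 in both spleen groups, and all 4 were higher still in muscle. S100a4, whose protein binds non-muscle myosin and is tied to cell motility, was at 3328 and 2541 CPM in aged muscle and 4164 and 3552 CPM in young muscle, against 775 and 505 CPM in aged spleen and 396 and 356 CPM in young spleen. S100a6, or calcyclin, was at 2211 and 1794 CPM in aged muscle and 4011 and 3009.7 CPM in young muscle, against 764 and 525 CPM in aged spleen and 479 and 350.3 CPM in young spleen. These neighbours on chromosome 3 kept the same order of groups: young muscle, aged muscle, aged spleen, young spleen, with no overlap between any neighbouring groups. S100a11, farther along the chromosome, had the same order, also without overlap. The share of all genes with this order was not counted. Muscle minus spleen for S100a4 was 2.20 ± 0.20 in aged mice and 3.36 ± 0.22 in young mice on the log2 scale. For S100a6 it was 1.63 ± 0.22 in aged mice and 3.08 ± 0.23 in young mice.

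S100a10 is unusual in the family because its calcium-binding loops are inactive and it stays bound to annexin A2. S100a10 was at 1756 and 1513 CPM in aged muscle and 2486 and 2211 CPM in young muscle, against 1057 and 939 CPM in aged spleen and 961 and 856 CPM in young spleen. S100a11, the partner of annexin A1, was at 519 and 410.2 CPM in aged muscle and 688 and 619.9 CPM in young muscle, against 313 and 300.3 CPM in aged spleen and 239.8 and 202 CPM in young spleen. These were the smallest tissue differences of the S100 genes: the lowest muscle library exceeded the highest spleen library 1.43-fold for S100a10 and 1.31-fold for S100a11. Muscle minus spleen was 0.71 ± 0.15 in aged mice and 1.37 ± 0.15 in young mice for S100a10. For S100a11 it was 0.60 ± 0.16 in aged mice and 1.57 ± 0.16 in young mice.

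Per kilobase of exon, the annexin genes were the least abundant of the 10 in both muscle groups, and their young muscle libraries lay far apart. Anxa1, which encodes a glucocorticoid-induced ligand of formyl peptide receptors, was at 53.3 and 44.8 CPM in aged muscle and 76.0 and 26.0 CPM in young muscle, against 1.47 and 3.73 CPM in aged spleen and 1.40 and 1.94 CPM in young spleen. The spleen values rest on 6 and 11 counts in aged and 3 and 5 counts in young mice. Muscle minus spleen was 4.28 ± 0.56 in aged mice and 4.89 ± 0.63 in young mice on the log2 scale, the largest after Lmna. Anxa2, whose protein anchors plasminogen activation at the cell surface together with S100a10, was at 88.3 and 64.3 CPM in aged muscle and 219 and 100.4 CPM in young muscle, against 84.3 and 62.8 CPM in aged spleen and 43.9 and 41.8 CPM in young spleen. Anxa2 was the exception to the tissue difference: aged muscle and aged spleen overlapped (0.05 ± 0.32), whereas both young muscle libraries lay above both young spleen libraries (1.90 ± 0.34).

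Both galectin genes were higher in all muscle libraries than in all spleen libraries and varied within young muscle. Lgals1, which encodes galectin-1, was at 915 and 646 CPM in aged muscle and 1287 and 850.2 CPM in young muscle, against 230.2 and 205 CPM in aged spleen and 244 and 223 CPM in young spleen. Lgals3, which encodes galectin-3, a lectin best known from macrophages, was at 115 and 93.0 CPM in aged muscle and 255 and 91.4 CPM in young muscle, against 18.6 and 6.45 CPM in aged spleen and 11.2 and 10.8 CPM in young spleen. Muscle minus spleen for Lgals1 was 1.84 ± 0.21 in aged mice and 2.20 ± 0.21 in young mice on the log2 scale. For Lgals3 it was 3.001 ± 0.60 in aged mice and 3.97 ± 0.64 in young mice, on spleen levels of 6.45 to 18.6 CPM.

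Replicate 1 of young muscle, the library with the most myeloid and fibroblast transcripts, was above replicate 2 in all 10 genes, and the gap was widest in the annexins and galectins. The ratio of replicate 1 to replicate 2 was 2.93 for Anxa1, 2.79 for Lgals3, 2.18 for Anxa2 and 1.51 for Lgals1, against 1.09 to 1.33 for Lmna, Vim and the 4 S100 genes. The part of the myeloid and fibroblast transcripts in those values was not tested. In aged muscle, too, replicate 1 was above replicate 2 in all 10 genes. There the ratio was 1.16 to 1.31 for Lmna, Vim and the 4 S100 genes, and 1.19 to 1.42 for the annexins and galectins. Replicate 2 of young muscle was above the highest spleen library in all 10 genes, by 36.0-fold for Lmna, 1.98-fold for S100a11 and 1.19-fold for Anxa2. How many of all genes had that order was not counted. That library had a myeloid sum of 126 CPM and a fibroblast sum of 36.0 CPM. In young spleen the myeloid sums were 108 and 46.1 CPM and the fibroblast sums 95.3 and 74.0 CPM. Without replicate 1 of young muscle, muscle minus spleen in young mice was 3.89 for Anxa1, 3.03 for Lgals3, 1.21 for Anxa2 and 1.85 for Lgals1 on the log2 scale, and between 1.27 and 5.35 for the other 6 genes. In aged mice the myeloid sums were 54.0 and 72.7 CPM in muscle and 89.5 and 168 CPM in spleen, the fibroblast sums 8.94 and 104 CPM in muscle and 14.5 and 11.9 CPM in spleen, and the endothelial sums 36.1 and 64.3 CPM in muscle and 10.1 and 14.2 CPM in spleen.

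All 4 muscle libraries lay above all 4 spleen libraries for 9 of the 10 genes, all but Anxa2; over all genes tested, 12.4% had that order. In edgeR's quasi-likelihood test over all genes (Benjamini-Hochberg adjusted p under 0.05 is a call), 10 of the 10 genes were called higher in young muscle than in young spleen, where 11.4% of all genes tested were called higher and 10.9% lower. In aged mice 9 of the 10 were called higher in muscle, where 9.57% of all genes were called higher and 9.27% lower. None of the 10 was called lower in muscle at either age, and none had an unadjusted p under 0.05 in that direction by edgeR or a call by DESeq2. The median log2 difference of the 10 genes was 2.02 in aged mice and 2.77 in young mice, beside 0.03 and 0.07 over all genes tested. Because the genes were chosen with these libraries in view, nothing is read from these counts. The summed endothelial markers, mostly Emcn and Tek in aged muscle, were also higher in muscle, and their part in these differences was not tested. Some calls rested on single libraries. In aged mice the call of Lgals3 was lost without replicate 1 (2.81) or 2 (3.13) of aged muscle, replicate 2 of aged spleen (2.44) or either young spleen library (2.97 each), and its difference was 3.97 without replicate 1 of aged spleen. The aged call of S100a10 was lost without replicate 1 (0.77) or 2 (0.59) of aged spleen, and that of S100a11 without replicate 1 of aged muscle (0.39) or any 1 spleen library (0.53 to 0.60). The aged difference of Anxa1 was 3.67 without replicate 1 and 4.97 without replicate 2 of aged spleen. In young mice the call of Lgals3 was lost without replicate 1 (3.98) or 2 (3.95) of young spleen.

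**Figure D3:**
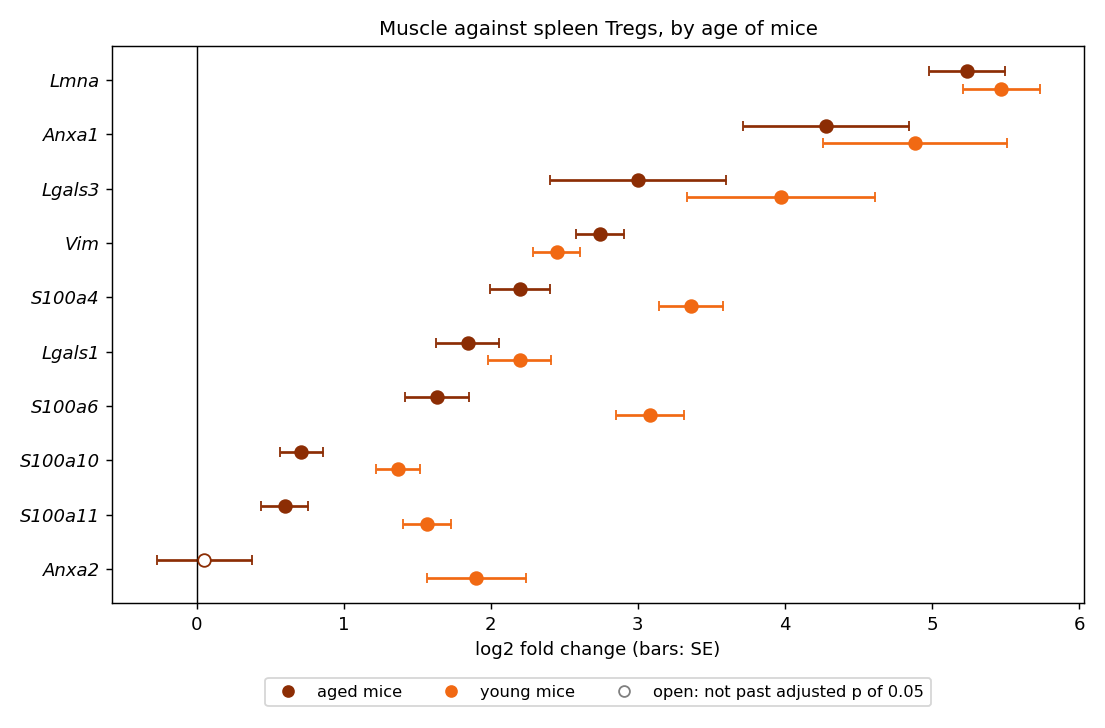
Muscle minus spleen on the log2 scale with bars of 1 standard error (horizontal axis) for each of the 10 genes, in aged and in young mice; the open point was not called. Every point lies above 0, from 0.05 for Anxa2 in aged mice to 5.47 for Lmna in young mice, and the young difference exceeds the aged one in all genes but Vim.

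Within muscle, all 10 genes had a lower fitted level in aged than in young Tregs with TMM scaling (9 of 10 with library size alone, where Anxa1 was at 0.07), and no single difference passed the test. The median difference, aged minus young, was -0.51 on the log2 scale, beside 0.03 over all genes tested, of which 47.9% lay below 0. The difference was widest for Anxa2 (-1.07 ± 0.32), followed by S100a6 (-0.81 ± 0.21), Lgals3 (-0.74 ± 0.52) and Lmna (-0.66 ± 0.21). It was -0.52 ± 0.15 for S100a10, -0.49 ± 0.16 for S100a11, -0.45 ± 0.20 for Lgals1 and -0.39 ± 0.20 for S100a4, and smallest for Vim and for Anxa1 (-0.06 ± 0.44). In Lmna, the 4 S100 genes and Anxa2, both aged muscle libraries lay below both young muscle libraries, an order that 20.3% of all genes tested had; in Vim, Anxa1, Lgals1 and Lgals3 the groups overlapped. The part of the myeloid and fibroblast transcripts of young muscle replicate 1 in these differences was not tested.

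By edgeR 0 of the 10 genes were called lower and 0 higher in aged muscle, while 0.88% of all genes tested were called lower and 1.14% higher. At an unadjusted p under 0.05 by edgeR, 6 of the 10 were lower and 0 higher, beside 2258 of all 14772 genes tested in either direction. DESeq2 called 4 lower (Lmna, S100a10, S100a11 and Anxa2) and 0 higher, beside 254 lower and 243 higher of all 14772 genes. Because the genes were chosen with these libraries in view, nothing is read from these counts. The direction of Anxa1 and Lgals3 rested on replicate 1 of young muscle: without it the aged minus young difference was 0.91 for Anxa1 and 0.18 for Lgals3, 8 of the 10 genes lay below 0, and the median was -0.34. Without replicate 2 of aged muscle 9 of the 10 lay below 0, and the median was -0.38. That library had a Treg marker sum of 3807 CPM, against 4596 to 5034 CPM in the other muscle libraries. The part of this sum in the differences was not tested. Without replicate 2 of young muscle, S100a6 (-1.02), Anxa2 (-1.54), Lgals1 (-0.74) and Lgals3 (-1.31) were called lower, and without replicate 1 of aged muscle S100a10 (-0.67) and S100a11 (-0.71) were.

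In spleen, 7 of the 10 genes had a fitted difference above 0 with TMM scaling (8 with library size alone, where Lgals1 was at 0.07), and S100a4 alone passed the test. Of all genes tested, 46.7% lay below 0, so nothing is read from this count. S100a4 rose in aged spleen by 0.77 ± 0.20 on the log2 scale, which is 1.71-fold, and was the 1 gene of the 10 called higher, where 2.08% of all genes tested were called higher and 2.17% lower. Of all calls in that comparison 49.0% were higher with TMM scaling and 67.4% with library size alone. S100a6 (0.64 ± 0.22), S100a11 (0.47 ± 0.16) and Anxa2 (0.78 ± 0.34) were not called, but in these 3 genes, as in S100a4, both aged spleen libraries lay above both young spleen libraries. That order held for 28.8% of all genes tested, and the opposite order, seen in Vim, for 24%. S100a10 (0.14 ± 0.15), Lgals1 (-0.10 ± 0.21), Lgals3 (0.23 ± 0.70), Anxa1 (0.55 ± 0.78) and Lmna (-0.43 ± 0.26) overlapped between the ages. The median of the 10 genes was 0.35, beside 0.05 over all genes tested.

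None of the 10 was called lower in aged spleen by edgeR. Vim alone had an unadjusted p under 0.05 in that direction, beside 2460 of all 14772 genes tested in either direction. DESeq2 called 1 gene, Vim, lower, beside 444 of all 14772 genes. The call of S100a4 in aged spleen was lost without replicate 1 (0.86) or replicate 2 (0.71) of young spleen, and without replicate 1 of aged spleen (0.43), which was the higher of the aged pair. Leaving out single muscle libraries, which also changes the set of genes tested, brought in S100a11 (0.48, without replicate 2 of aged muscle), Anxa2 (0.79, without either young muscle library, though without replicate 1 only when the tested genes were chosen anew) and Vim as lower (-0.49 and -0.47, without replicate 1 or 2 of aged muscle). Some marker sums of other cells did not overlap between the ages in spleen: fibroblast markers were at 14.5 and 11.9 CPM in aged spleen and 95.3 and 74.0 CPM in young spleen, and endothelial markers at 10.1 and 14.2 CPM in aged spleen and 0.935 and 1.55 CPM in young spleen. The fibroblast difference was mostly that of a single gene, Sparc, at a mean of 67.5 CPM in young spleen and 4.95 CPM in aged spleen. No other fibroblast marker had a mean above 4.82 CPM in either spleen group. The endothelial sum of aged spleen was mostly Emcn and Tek, at means of 5.13 and 4.22 CPM. The myeloid sums, 89.5 and 168 CPM in aged spleen and 108 and 46.1 CPM in young spleen, overlapped. The part of these transcripts in the age differences was not tested.

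**Figure D4:**
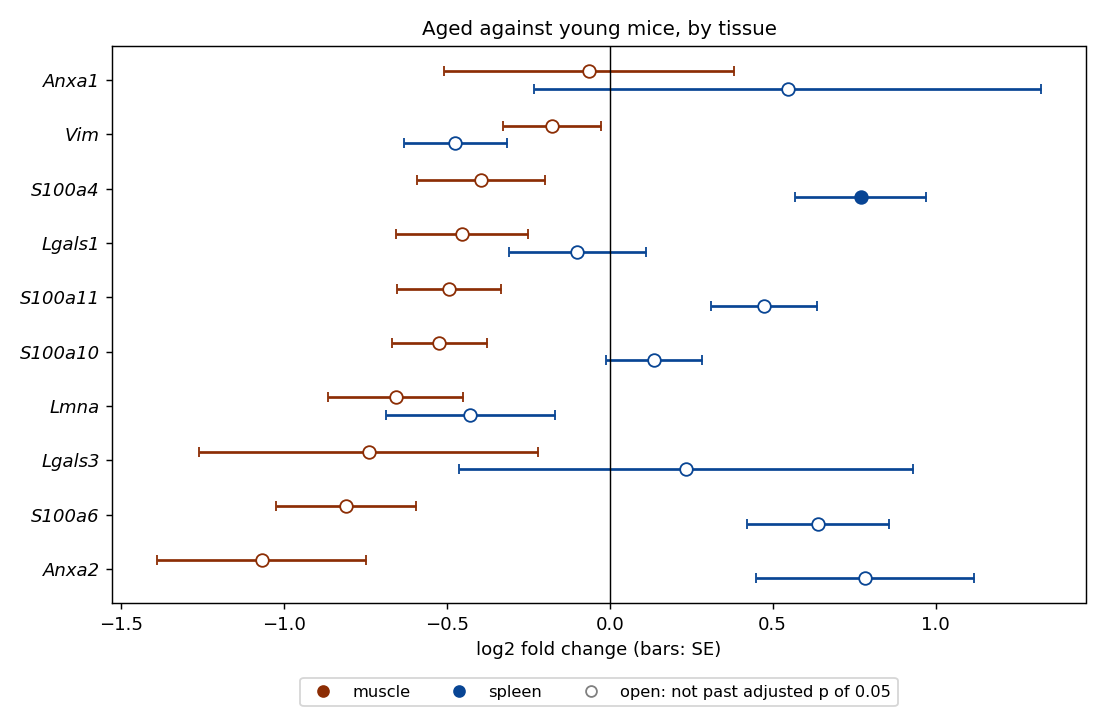
Aged minus young on the log2 scale with its standard error (horizontal axis) for each of the 10 genes, in muscle and in spleen; the filled point, S100a4 in spleen, was called. All muscle points lie below 0, from -1.07 for Anxa2 to -0.06 for Anxa1, and spleen points lie above 0 for 7 genes and below 0 for Lmna, Vim and Lgals1. Of all genes tested, 47.9% lay below 0 in muscle and 46.7% in spleen.

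The difference between the age effects, muscle minus spleen, was below 0 in all of the 10 genes but Vim (0.30 ± 0.22). Of all genes tested, 52.3% lay below 0. Without replicate 1 of aged spleen 7 of the 10 lay below 0, and without replicate 2 of aged spleen or replicate 1 of young muscle 8 did. With all 8 libraries the difference was called lower for S100a4 (-1.16 ± 0.28), S100a6 (-1.45 ± 0.31) and S100a11 (-0.97 ± 0.23), 3 of 10 genes, where 1.17% of all genes tested were called lower and 1.35% higher. As the genes were chosen with these libraries in view, nothing is read from these counts. None of the 10 was called higher, by edgeR, by DESeq2 or at an unadjusted p under 0.05. Anxa2 had the widest difference of the 10 (-1.85 ± 0.46) and was not called, and S100a10 was at -0.66 ± 0.21. For Lmna (-0.23 ± 0.33), Lgals1 (-0.35 ± 0.29), Anxa1 (-0.61 ± 0.89) and Lgals3 (-0.97 ± 0.87) the difference was also not called. The median of the 10 was -0.81, beside -0.04 over all genes tested. The call of S100a4 was lost without replicate 1 (-1.27) or 2 (-1.12) of young spleen, replicate 1 of aged spleen (-0.84), replicate 1 of young muscle (-1.06) or replicate 2 of aged muscle (-0.99). The call of S100a6 was lost without replicate 2 of young spleen (-1.27), replicate 1 of aged spleen (-1.17) or either aged muscle library (-1.63 and -1.31). The call of S100a11 was lost without any 1 spleen library (-1.12 to -0.88), without replicate 1 of young muscle (-0.91) or without replicate 2 of aged muscle (-0.81). Without replicate 2 of young muscle Anxa2 was called (-2.33), and without replicate 1 of aged muscle S100a10 was (-0.79).

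By level, young muscle came first and aged muscle second in the order of group means for all 10 genes. How many of all genes tested had this order of means was not counted. The 10 genes were chosen with these libraries in view, so nothing is read from it. Neighbouring groups overlapped between young and aged muscle for Vim, Anxa1, Lgals1 and Lgals3, and between aged muscle and aged spleen for Anxa2 alone. Aged spleen stood above young spleen for 7 genes, and below it for Lmna, Vim and Lgals1. Per kilobase of annotated exon, S100a4 was the most abundant of the 10 in aged muscle, at 5025 CPM per kb, in young muscle, at 6606 CPM per kb, and in aged spleen, at 1096 CPM per kb. In young spleen S100a10 came first, at 749.5 CPM per kb, ahead of S100a4 at 643 CPM per kb. Lmna was seventh of the 10 in aged muscle (192 CPM per kb) and sixth in young muscle (303 CPM per kb), but ninth in aged spleen (5.001 CPM per kb) and eighth in young spleen (6.80 CPM per kb). Anxa1 was last in each group, from 17.5 CPM per kb in young muscle to 0.574 CPM per kb in young spleen. These ranks divide by the length of all annotated exons, and whether reads covered transcripts evenly was not tested. By mean CPM alone, Lmna (1770) stood above Lgals1 (1068) and S100a11 (654) in young muscle, the reverse of their order per kilobase. In all, the 10 genes took 1.18% and 1.01% of the counts of the aged muscle libraries and 1.57% and 1.36% in young muscle, against 0.350% and 0.282% in aged spleen and 0.240% and 0.214% in young spleen.

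Genes of the same families and their partners were read from 7 lists, of which 76 genes were tested; the lists were also set up with earlier results known. Adjusted p-values of these genes are from edgeR's quasi-likelihood test over all 14772 genes. In aged mice 23 of the 76 were called higher in muscle and 6 lower, and in young mice 24 higher and 6 lower. Of all genes tested, 9.57% were called higher and 9.27% lower in aged mice, and 11.4% higher and 10.9% lower in young mice. These shares also stand beside the counts per list that follow. The median of the 76 was 0.47 in aged mice and 0.48 in young mice on the log2 scale.

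Most other genes of the S100, annexin and galectin lists were not called between the tissues. The S100 list also held S100pbp and the galectin list Lgals3bp, which encode binding proteins and not members of these families. Among 6 genes of the S100 list tested, S100a13 rose in muscle at both ages, by 0.80 ± 0.17 in aged mice (adjusted p = 0.00566) and 1.03 ± 0.18 in young mice (adjusted p = 7.88e-04). The aged call of S100a13 was lost without either aged spleen library (0.76 and 0.77). S100b was called in aged mice (3.33 ± 0.29, adjusted p = 2.94e-06), and no other S100 gene of the list was called. Of 7 other annexins, Anxa11 (0.93 ± 0.23) and Anxa4 (1.48 ± 0.42) were called higher in young muscle and Anxa6 (0.54 ± 0.15) in aged muscle. The call of Anxa11 was lost without replicate 2 of young spleen (0.70), that of Anxa4 without either young spleen library or replicate 1 of young muscle (1.31 to 1.53), and that of Anxa6 without any 1 spleen library or replicate 1 of aged muscle (0.31 to 0.53). Of 6 genes of the galectin list tested, Lgals7 was called higher in aged muscle (2.47 ± 0.56) and Lgals3bp, which encodes a secreted ligand of galectin-3, lower in young muscle (-1.16 ± 0.32). The call of Lgals7 was lost without either aged spleen library or replicate 1 of aged muscle (2.02 to 2.53), and that of Lgals3bp without replicate 2 of young spleen (-0.63) or replicate 2 of young muscle (-1.11).

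The B-type lamin gene Lmnb1, which is generally high in dividing cells, rose in muscle with Lmna but to a smaller extent. Lmnb1 was at 182 and 157 CPM in aged muscle and 348 and 324 CPM in young muscle, against 67.4 and 76.0 CPM in aged spleen and 63.1 and 58.1 CPM in young spleen. Muscle minus spleen was 1.25 ± 0.17 in aged mice (adjusted p = 1.69e-04) and 2.47 ± 0.18 in young mice (adjusted p = 1.94e-07). Of the 16 lamina and envelope genes tested, 4 were called higher in aged muscle, and 3 higher and 2 lower in young muscle. Syne2, which encodes a nesprin that ties the nucleus to the cytoskeleton, was called higher at both ages (1.30 ± 0.29 in aged and 1.19 ± 0.30 in young mice), and lost the aged call without replicate 2 of aged spleen or of aged muscle (1.07 each) and the young call without replicate 1 (1.25) or 2 (1.10) of young spleen. Lmnb1 alone of this list also changed with age in muscle, where it fell by 0.98 ± 0.16 on the log2 scale in aged mice (adjusted p = 0.0045), a call not made when the muscle groups were fitted alone.

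Of 16 filament and cytoskeleton genes tested, 8 were called higher and 1 lower in aged muscle, and 8 higher in young muscle. Actg1, which encodes cytoplasmic gamma-actin, was higher by 1.49 ± 0.13 in aged mice (adjusted p = 3.53e-06) and 1.40 ± 0.13 in young mice (adjusted p = 3.20e-06). The actin-binding genes Tpm4 (a tropomyosin) and Tagln2 (transgelin 2) were higher by 1.19 ± 0.17 and 1.27 ± 0.17 in aged mice, and by 1.04 ± 0.17 and 1.02 ± 0.17 in young mice. Capg, which encodes a protein that caps actin filaments, was higher by 1.47 ± 0.16 in young mice. These calls held on leaving out any 1 library.

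Of 16 partners and receptors tested, 4 were called higher and 4 lower in aged muscle, and 6 higher and 3 lower in young muscle. Ahnak, which encodes a giant scaffold that binds the annexin A2 and S100a10 complex, was at 603 and 445 CPM in aged muscle and 708 and 683 CPM in young muscle, against 273 and 305 CPM in aged spleen and 207 and 197 CPM in young spleen. It was higher in muscle by 0.86 ± 0.16 in aged mice (adjusted p = 0.00233), a call lost without replicate 1 of aged spleen (0.75), and by 1.79 ± 0.17 in young mice (adjusted p = 2.91e-06). Of the glycosyltransferase genes of this list, which set galectin binding, St6gal1 and Mgat5 were lower in muscle and Gcnt1 was higher. St6gal1, whose sialyl caps block galectin-1, fell by 2.05 ± 0.18 in aged mice (adjusted p = 2.73e-06) and by 2.64 ± 0.18 in young mice (adjusted p = 1.46e-07). Mgat5, which builds the branched glycans that galectin-3 binds, fell by 1.18 ± 0.17 in aged mice and by 1.76 ± 0.17 in young mice. Gcnt1, which makes the core O-glycan branches that galectin-1 binds and was named after its values were seen, was at 10.1 and 18.6 CPM in aged muscle and 49.9 and 43.0 CPM in young muscle, against 4.41 and 2.04 CPM in aged spleen and 5.14 and 3.49 CPM in young spleen. It rose in muscle by 2.09 ± 0.52 in aged mice (adjusted p = 0.0119), a call lost without replicate 2 of aged spleen (1.63) or of aged muscle (1.58), and by 3.43 ± 0.52 in young mice (adjusted p = 2.89e-04). Mgat4a, another glycosyltransferase gene of the list, was not called at either age (0.61 ± 0.40 in aged and -0.83 ± 0.43 in young mice). Cd7, a galectin-1 receptor in human T cells, was higher in muscle by 1.61 ± 0.23 in aged mice and 0.95 ± 0.22 in young mice, the young call being lost without replicate 2 of young spleen (0.81). Havcr2, which encodes Tim-3, was higher in muscle by 2.57 ± 0.52 in aged mice, a call lost without replicate 1 of aged spleen (2.36), and by 3.73 ± 0.56 in young mice (5.07 without replicate 1 and 2.98 without replicate 2 of young spleen). Of 10 genes tested that are linked to Lmna or to actin-dependent transcription, 3 were called higher and 1 lower in aged muscle and 4 higher in young muscle, among them Vcl, which encodes vinculin (2.30 ± 0.41 in young mice), and the retinoic acid receptor gene Rara (1.03 ± 0.19 in young mice).

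**Figure D5:**
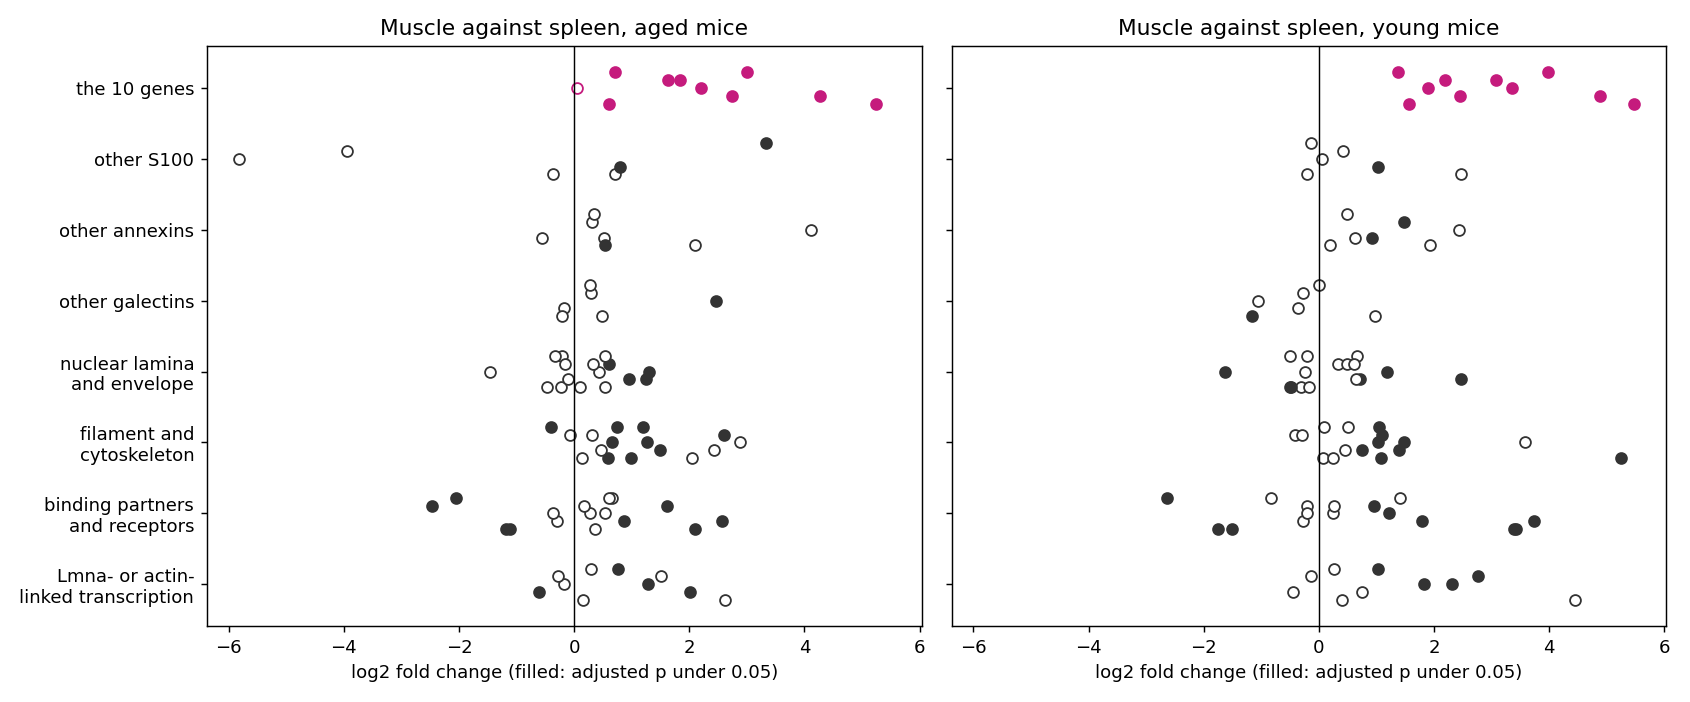
Muscle against spleen log2 fold change (horizontal axes) of each tested gene of the 7 lists of related genes and of the 10 genes described here, in aged mice on the left and young mice on the right; filled points have an adjusted p under 0.05 and open points do not. The filament and cytoskeleton list has the most filled points above 0 of the 7 lists, 8 of 16 at each age, and 1 of the 10 genes, Anxa2 in aged mice, is open. Of all genes tested, 9.57% were called higher in aged mice and 11.4% in young mice.

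With age in muscle, 3 of the 76 related genes were called higher and 3 lower, and in spleen 2 higher and 3 lower. Of all genes tested, 1.14% were called higher and 0.88% lower in muscle, and 2.08% higher and 2.17% lower in spleen. S100b, a family member best known from glial cells, rose with age in muscle and fell with age in spleen. S100b was at 103 and 111 CPM in aged muscle and 27.8 and 33.5 CPM in young muscle, against 8.58 and 12.9 CPM in aged spleen and 29.4 and 37.6 CPM in young spleen. Aged minus young was 1.80 ± 0.27 in muscle (adjusted p = 0.00211) and -1.66 ± 0.29 in spleen (adjusted p = 0.00437). The spleen call was lost without replicate 2 of young spleen (-1.45) or replicate 1 of aged spleen (-1.37). Lgals3bp was at 135 and 95.6 CPM in aged muscle and 24.1 and 22.0 CPM in young muscle, against 68.6 and 97.7 CPM in aged spleen and 35.5 and 67.4 CPM in young spleen, and rose by 2.32 ± 0.32 in aged muscle (adjusted p = 0.00136). Mkl2, which encodes an actin-regulated coactivator of serum response factor, was higher in young muscle than in young spleen by 1.83 ± 0.21 (adjusted p = 2.09e-05) and fell by 1.78 ± 0.21 in aged muscle (adjusted p = 2.27e-04). Lag3, which encodes an inhibitory receptor that galectin-3 binds, rose in aged spleen by 2.92 ± 0.50 (adjusted p = 0.00382), a call lost without replicate 1 (3.06) or 2 (2.80) of young spleen.

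The genes whose pattern over the 8 libraries was most like each of the 10 were found among 7793 candidates by the root mean square difference of centred log2 CPM, where 0 is an identical pattern. A gene that varies little has small distances by construction, so distances compare candidates for 1 gene and not the genes themselves. Lmna was nearest to Gzmb, which encodes granzyme B (0.48), and then to the chemokine receptor genes Ccr3 (0.58) and Ccr2 (0.62). Gzmb was at 312 and 274 CPM in aged muscle and 442 and 481 CPM in young muscle, against 10.3 and 9.16 CPM in aged spleen and 5.14 and 23.2 CPM in young spleen, high in all 4 muscle libraries as Lmna was. Anxa1 was near to Myadm (0.53) and to Cdkn1a, which encodes the cell cycle inhibitor p21 (0.55). Vim was nearest to Nr4a1, an immediate early gene of T cell receptor signalling (0.17), the phosphatase gene Dusp5 (0.17) and Cpm (0.20). S100a10 was nearest to Nfkbia, which encodes the NF-kB inhibitor IkB-alpha (0.11), then to Ipmk and Mif4gd (0.12 each). Nfkbia was at 3394 and 2835 CPM in aged muscle and 4174 and 3885 CPM in young muscle, against 1627 and 1737 CPM in aged spleen and 1533 and 1493 CPM in young spleen. S100a11 was nearest to Capg (0.11), Jund, which encodes a Jun factor (0.12), and N4bp1 (0.13). S100a4 was nearest to Gadd45b (0.20), Gna15 (0.22) and Glrx (0.27), and S100a6 to Glrx (0.22), Agpat4 (0.26) and Scpep1 (0.26). Lgals1 was nearest to Scpep1 and Got1 (0.20 each) and Emb (0.23), Lgals3 to Dgat1 (0.48), Rhoc (0.54) and Fosb (0.58), and Anxa2 to Tjp3 (0.26), Smco4 (0.27) and N4bp1 (0.28).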

How the data were processed

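The deposited table held raw counts of reads for 38406 gene symbols in 8 libraries. Per the submitters' processing notes, the build was mm10 and the tools included HTSeq, Picard, TopHat, TopHat2 and SAMtools 0.1.19; which annotation and strand setting were used is not given there. No molecular identifiers are described in the labels' protocols, so a count is a read and not a molecule, and amplification can change the ratio between genes. Columns were matched to samples by the sample descriptions and every column was used.

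Counts were analysed with edgeR 4.0.16 in R 4.3.3. filterByExpr with the 4 groups kept 14772 genes, libraries were scaled by TMM, and 1 robust quasi-likelihood model was fitted to all 8 libraries (4 residual degrees of freedom). It gave muscle against spleen at each age, age in each tissue, and the difference of the age effects, two-sided, with Benjamini-Hochberg adjustment at 0.05 over all genes. Standard errors were taken from the F statistic (the log2 difference over the root of F). CPM used TMM-scaled library sizes; a gene at 0 could have been at up to 3 counts, or 0.736 to 1.50 CPM in a library, by counting error only. For logged CPM the prior count was 2. The procedure was tested on simulated data.

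The 10 genes and the lists were chosen with earlier results of these data known. The text names the 10 genes, up to 4 called genes of smallest p per list and comparison, and the 3 nearest genes to each of the 10 (1 of them is not reported here), among genes with a mean log2 CPM of at least 4. Alternatives were library size alone, DESeq2's size factors, DESeq2 1.42.0, no filter, the compared groups alone, a replicate block, a prior count of 0.5 for the likeness of patterns, and each library left out; leaving out a library with the tested genes held was added after the data were seen.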

Additional observations from a re-analysis of the deposited data

Results flagged for a closer look

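The age effect differed between muscle and spleen, by edgeR's test of the difference itself, for 9 of the genes described. Of all genes tested, 1.35% were called higher and 1.17% lower by this test. Each value is the age effect in muscle minus that in spleen on the log2 scale. Among the 10 chosen genes the calls were S100a4 (-1.16), S100a6 (-1.45) and S100a11 (-0.97), whose choice already used these libraries. Each of these calls was lost on leaving out any of several single libraries, as given above. Among the related genes the calls were S100b (3.46), Lgals7 (3.51), Crip1 (1.51), Lmnb1 (-1.22), Mkl2 (-2.01) and Ahnak (-0.93). S100b and Mkl2 kept this call on leaving out any 1 library. Lmnb1 lost it without any 1 spleen library (-1.33 to -1.17), and Crip1 lost it without replicate 1 of young spleen, replicate 2 of aged spleen or replicate 1 of aged muscle (1.21 to 1.82 over all libraries left out). Lgals7 (2.86 to 4.52) and Ahnak (-1.18 to -0.73) lost it in 6 of the 8 cases each. With 2 libraries per group, no group was large enough to look for single outlying samples.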

How the results depend on the processing

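The count of the 10 genes called between tissues, 9 in aged and 10 in young mice, was the same under library size alone, DESeq2's size factors, DESeq2, no filter, the compared groups alone and the replicate block; leaving out 1 library gave 6 to 9 and 9 to 10. The age counts were less steady. In aged muscle 0 were called lower, against 4 by DESeq2, 3 with no filter, 3 with the replicate block and 0 to 4 leaving out 1 library. In aged spleen 1 was called higher, against 2 with library size alone, 3 with no filter, 4 with the compared groups alone, 2 with the block and 0 to 2 leaving out 1 library; 0 were called lower, against 1 by DESeq2, 1 with the compared groups alone and 0 to 1 leaving out 1 library. For the difference of age effects 3 were called lower, against 5 with library size alone, 5 by DESeq2, 5 with the block and 0 to 4 leaving out 1 library. Of the related genes, 29 were called between tissues in aged mice (12 to 37 leaving out 1 library) and 30 in young mice (17 to 35). With age in muscle 6 were called (10 with no filter, 3 with the compared groups alone, 4 to 12 leaving out 1 library), in spleen 5 (8 with library size alone, 14 by DESeq2, 19 with the compared groups alone, 9 with the block, 1 to 14), and for the difference 6 (10 with no filter, 2 to 11). The cause of these changes was not tested. No result changed direction while called.

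Over all genes, calls with age in muscle numbered 168 higher and 130 lower, against 243 and 254 by DESeq2, 417 and 331 with no filter, 32 and 17 with the compared groups alone and 263 and 216 with the block. In spleen they numbered 307 and 320, against 632 and 407 with no filter, 934 and 906 with the compared groups alone, 469 and 424 with the block and 489 and 236 with library size alone. For the difference they numbered 199 and 173, against 299 and 371 with no filter. By DESeq2 they numbered 392 and 444 in spleen and 256 and 234 for the difference. Leaving out 1 library gave 98 to 586 higher in muscle, 74 to 596 in spleen, 71 to 298 for the difference, and 426 to 2079 and 660 to 1891 between tissues in aged and young mice. Library size alone moved the median of all genes by 0.12 with age in muscle, 0.17 in spleen and 0.11 between tissues in young mice; relative to it the median of the 10 genes was -0.54 in muscle and 0.31 in spleen under either scaling. With a prior count of 0.5, 29 of the 30 nearest genes were the same. The labels do not say whether libraries with the same number in their titles share an animal. Deviations of same-numbered libraries correlated at -0.07 between aged muscle and aged spleen and at 0.11 between young muscle and young spleen. The highest value, 0.26, was between aged and young muscle, which came from different mice. Each group gives only a single difference between replicates, so these values cannot tell whether same-numbered libraries share an animal. Groups of 2 libraries limit every comparison, and a group left with 1 library was assumed to vary like the others.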
